A study of Mus musculus with 9 samples.

Results

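The adhesion G protein-coupled receptors are a family of membrane receptors with a long extracellular part, and 30 of the 47069 genes counted in these mouse tumours encode one. They were chosen by symbol alone: every gene whose mouse symbol has the form Adgr plus a subfamily letter and a number, and Celsr1, Celsr2 and Celsr3. The 30 members fall into 9 subfamilies, and 26 of them had enough counts to be tested, while Adgrb3, Adgrf2, Adgrf3 and Adgrg4 did not. RNA sequencing of total RNA from frozen tissue gave 9 libraries in 3 groups of 3, namely primary prostate tumours, proximal metastases in the epididymal fat, and distal metastases. All 3 groups came from C57BL/6 mice of about 9 to 10 months, with the prostate allele Ctnnb1pc(ex3)delta/+ among their engineered changes, so every group carries it and no library comes from an unaltered prostate. That allele lacks the third exon of Ctnnb1 in the prostate, which stabilises beta-catenin, the effector of canonical Wnt signalling. The samples are described as matched within 3 mice, but which libraries share a mouse is not stated, so the 6 metastases are not 6 independent animals and the p-values treat them as if they were. The tissue label of the distal group names the diaphragm and its growth protocol the lung, so that group is called distal here. The question the design poses is which genes differ between a prostate tumour and its spread to each site.

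Adhesion receptors carry a domain beside the membrane at which most of them cut themselves, and the stretch freed by that cut can act as a built-in agonist when the outer part is pulled away by a ligand on a neighbouring cell or in the matrix. Latrophilins (subfamily L) bind teneurins and FLRT proteins, Adgrg1 binds collagen III, Adgrg6 binds collagen IV, Adgre5 binds the complement regulator Cd55, Adgra2 acts with Reck in Wnt7 signalling, and the Celsr cadherins set planar cell polarity with Fzd and Vangl proteins. Several are read as markers of cell types, such as Adgre1 (the F4/80 antigen) for macrophages and Adgrl4 for endothelium.

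Totals ran from 28334730 to 40408723 counts per library, and the 30 members together took 18451 to 31431 of them. Primary 2 and primary 3 stood apart from the metastases across all genes (mean r of log2 levels with the 6 metastases 0.868 and 0.907), while primary 1 resembled them (0.975). Markers of basal and squamous epithelium summed to 45.6, 879.8 and 2958 CPM (counts per 1000000 counts, with library totals scaled between libraries) in primary 1, 2 and 3 and to 13.7 to 30.6 CPM in the metastases. Seminal vesicle and epididymis markers summed to 10651 CPM in primary 3 alone and to 26.8 CPM or less in the other 8 libraries. Most of it came from Svs2, Svs4, Svs5 and Pate4. Crisp1 was at 97.7 CPM in primary 3 and at most 0.156 CPM in any other library. Lcn5, Lcn8, Adam7 and Defb9 were at most 0.0678 CPM in every library. Skeletal muscle markers reached 585 and 811 CPM in distal 2 and distal 3 and were at most 6.74 CPM elsewhere, whereas lung markers stayed at 2.84 to 4.96 CPM in the metastases, with Sftpa1 at 0 in every library. Luminal prostate markers were at 1822 to 2715 CPM in the metastases, near the 2680.4 CPM of primary 1. The secretory marker Pbsn was at 0 in distal 2 and distal 3 and at most 0.887 CPM in the other metastases. Pbsn was at 0.483, 211 and 11.8 CPM in primary 1, 2 and 3, so primary 1 lay inside the range of the metastases. Ctnnb1 itself gave 4393, 936 and 1769 CPM in the primary tumours and 3549 to 4955 CPM in the metastases, and since every group has the same genotype it checks no label.

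The promoters of the 4 members that passed the test below are shown with that of Adgrl1, the leading member in the metastases, because CpG content is the plainest feature by which mammalian promoters divide. Each line holds the 250 bases upstream of a RefSeq start on GRCm38.p6, written 5′ to 3′ on the strand of the gene, with CpG dinucleotides in capitals. Adgrg1 has 2 windows, for 2 start sites.
Adgrg7 (chr16:56795859-56796108, reverse strand): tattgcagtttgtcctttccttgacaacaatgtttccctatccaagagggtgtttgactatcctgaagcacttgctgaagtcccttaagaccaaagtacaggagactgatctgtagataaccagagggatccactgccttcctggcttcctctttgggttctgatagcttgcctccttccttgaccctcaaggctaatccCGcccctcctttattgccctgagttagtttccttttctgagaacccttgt
Adgrf4 (chr17:42692285-42692534, reverse strand): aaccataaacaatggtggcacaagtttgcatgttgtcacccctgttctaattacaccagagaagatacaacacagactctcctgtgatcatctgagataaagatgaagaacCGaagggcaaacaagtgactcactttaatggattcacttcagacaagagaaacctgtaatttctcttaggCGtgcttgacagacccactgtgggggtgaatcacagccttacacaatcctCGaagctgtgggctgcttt
Adgrf1 (chr17:43270097-43270346, forward strand): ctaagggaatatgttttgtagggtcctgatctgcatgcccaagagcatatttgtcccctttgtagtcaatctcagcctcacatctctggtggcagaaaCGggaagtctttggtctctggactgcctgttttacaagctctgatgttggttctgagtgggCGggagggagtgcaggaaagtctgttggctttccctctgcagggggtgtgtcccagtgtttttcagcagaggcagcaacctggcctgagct
Adgrg1, upstream start (chr8:94976859-94977108, forward strand): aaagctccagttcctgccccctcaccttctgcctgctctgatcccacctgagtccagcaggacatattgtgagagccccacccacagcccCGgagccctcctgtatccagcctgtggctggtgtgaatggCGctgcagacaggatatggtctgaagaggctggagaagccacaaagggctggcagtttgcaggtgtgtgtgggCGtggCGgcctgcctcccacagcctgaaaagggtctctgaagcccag
Adgrg1, downstream start (chr8:94984149-94984398, forward strand): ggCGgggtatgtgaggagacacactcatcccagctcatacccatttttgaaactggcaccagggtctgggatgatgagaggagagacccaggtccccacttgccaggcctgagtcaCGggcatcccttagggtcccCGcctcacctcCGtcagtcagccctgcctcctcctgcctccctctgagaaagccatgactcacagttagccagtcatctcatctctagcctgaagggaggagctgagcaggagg
Adgrl1 (chr8:83899848-83900097, forward strand): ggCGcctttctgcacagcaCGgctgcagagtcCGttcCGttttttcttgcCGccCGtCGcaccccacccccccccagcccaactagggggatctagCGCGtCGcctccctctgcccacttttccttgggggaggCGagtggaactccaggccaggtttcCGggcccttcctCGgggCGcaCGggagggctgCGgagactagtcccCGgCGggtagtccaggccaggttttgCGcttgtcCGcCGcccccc
The first 5 of these windows held 1 CpG for Adgrg7, 2 for Adgrf1, 3 for Adgrf4 and 4 in each window of Adgrg1. Adgrl1 held 21, and the median of 32851 windows over all genes was 6 (quartiles 2 and 16). The first 5 windows were thus below the median, but only that of Adgrg7 was below the lower quartile. Counts below the median were not limited to the 4 members that passed the test. Adgrg5 held 4, Adgrl2 3, Adgre4 2, and Adgrl4 and the upstream window of Adgrf5 held 5 each. Adgrg4, which was not tested, held 0. Adgrg6 and Celsr2, which were lower in the metastases but lay just outside the threshold, held 32 each. Windows were found for 22 of the 30 members, 26 windows in all. The AP-1 motif TGANTCA, searched on both strands, occurred in 3 of the 26 windows (Adgrf4, the downstream window of Adgrg1, and Adgrg4) and in 6.75% of all windows. The TCF/LEF motif ATCAAAG occurred in 0 of the 26 and in 3.21% of all windows, and the GC box GGGCGG in 14 of the 26 and in 32.7% of all windows. The E-box CAGGTG occurred in 4 of the 26 (the upstream window of Adgrg1, Adgrg3, Adgrv1 and Celsr2) and in 17.2% of all windows. Also searched were the TATA box TATAAA (2 of the 26, 12.4% of all windows) and the Grhl motif AACCNGTT (0 of the 26, 1.79%). These matches are a description of the letters, made after the expression values were seen.

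The clearest difference between the primary tumours and the metastases was in Adgrg7, an orphan receptor known from the lining of the gut. Adgrg7 fell at each site (log2 fold changes -7.52 and -8.42), and Adgrf4, Adgrf1 and Adgrg1 fell in the comparison of both sites with the primary tumours. Adgrl1, Adgre5, Adgra3 and Adgrd1 made up most of the family's expression per exon length in the metastases, but none of them passed the test, and primary 1 had them at metastasis levels. The same split between primary 1 and the other primary tumours ran through most of the family. In a bulk library, fewer cells of a type and less RNA per cell cannot be told apart, and this holds for every value below.

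**Figure D1:**
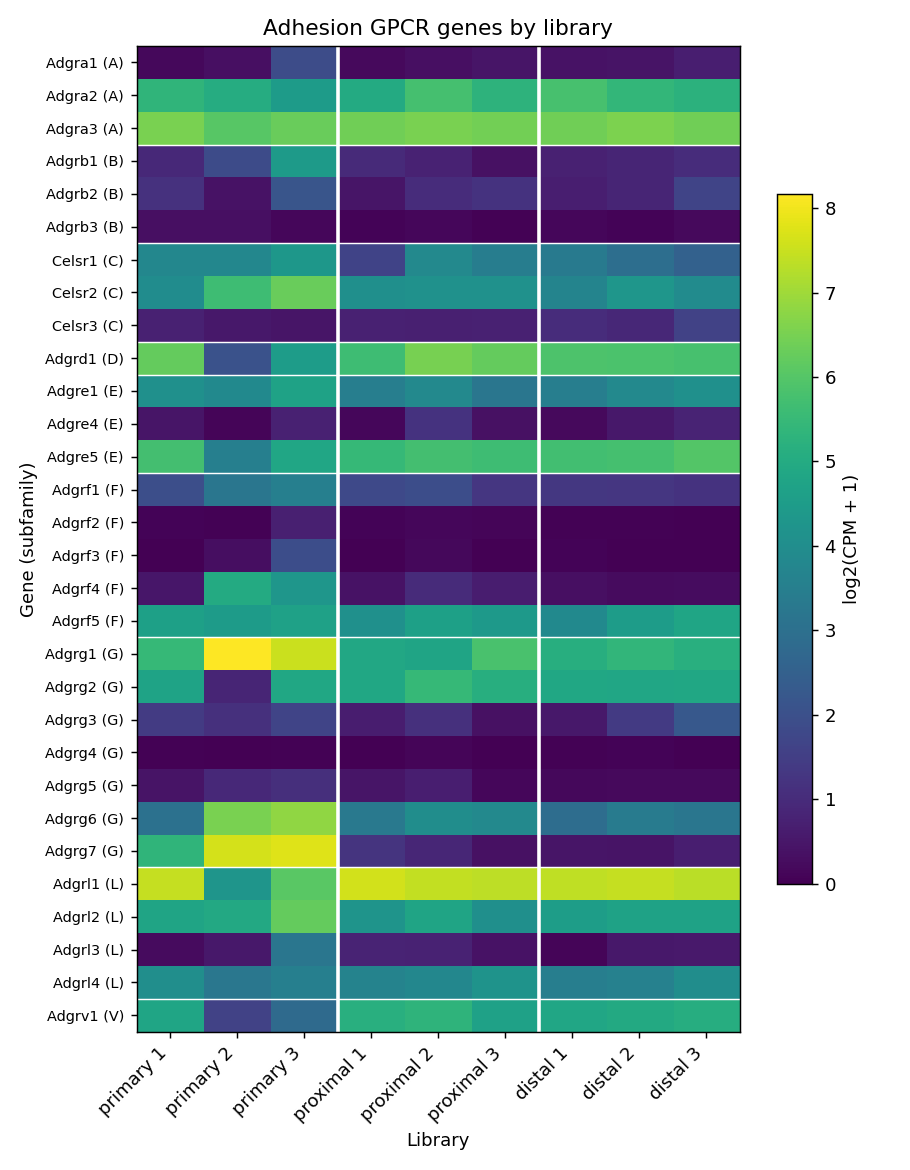
Expression of the 30 adhesion receptor genes (rows, with the subfamily letter in brackets) in the 9 libraries (columns), as log2(CPM + 1) by colour, with white lines between groups and subfamilies. The row of Adgrg7 is bright in the 3 primary tumours (39.6, 197 and 217 CPM) and dark in the 6 metastases (at most 1.33 CPM), and the rows of Adgrl1 and Adgrv1 are darkest in primary 2.

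Adgrg7 (ENSMUSG00000022755, chr16:56724609-56795855, reverse strand, GRCm38) reached 39.6, 197 and 217 CPM in the primary tumours numbered 1, 2 and 3. Levels were 1.33, 0.841 and 0.293 CPM in the proximal metastases and 0.375, 0.357 and 0.599 CPM in the distal ones, in the same order of numbers. Its groups did not overlap: primary 1, the lowest primary tumour, was 29.7 times the highest metastasis. The counts behind these levels were 12916 over the primary tumours and 144 over the 6 metastases, 12 to 51 in each, so each metastasis held some reads of the gene, but few. The log2 fold change of both metastatic sites against primary was -7.97 (SE 0.64, adjusted p = 0.00373 by edgeR's quasi-likelihood test), the 37th lowest of 18204 genes. It was -7.52 (SE 0.86, adjusted p = 0.0454) at the proximal site and -8.42 (SE 0.90, adjusted p = 0.0378) at the distal site. It was the 1 member of 26 that passed at each single site, where 0.0494% of all genes passed as lower in the proximal and 0.0879% in the distal comparison. The call for both sites together held in all 17 alternative fits, with log2 fold changes from -8.41 to -7.61 when 1 library was left out. At the single sites it rested on the full set of libraries: it was lost in 8 of 9 fits without 1 library at the proximal site (adjusted p up to 0.274) and in 7 of 9 at the distal site (up to 0.313).

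Some epithelial markers were also lower in the metastases, as Adgrg7 was. Of the 8 basal and squamous markers 6 were called lower in both sites together, among them Krt5, Krt14 and Trp63. Of the 8 luminal markers 2 were, namely Pbsn and Hoxb13, where 3.68% of all genes were called lower. In primary 1 the luminal sum and Pbsn (0.483 CPM) lay inside the range of the metastases. The basal sum of primary 1 was 45.6 CPM against at most 30.6 CPM in the metastases. Hoxb13, a prostate transcription factor named here after its values were seen, was at 44.4, 221 and 68.3 CPM in the primary tumours and 3.02 to 4.93 CPM in the metastases, so it was higher in all 3 primary tumours, primary 1 included. The part of these cell types in the Adgrg7 values was not tested.

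Over both sites together, 4 members passed as lower (Adgrg7, Adgrf4, Adgrf1 and Adgrg1) and 0 as higher, where 3.68% of all tested genes passed as lower and 0.033% as higher. At an unadjusted p below 0.05 the members gave 11 lower and 1 higher, where the background was 18.6% and 6.04%. The median log2 fold change was -0.65 over the 26 members and -0.04 over all tested genes, and 16 of the 26 had a negative sign. Groups did not overlap for 2 members, Adgrf1 and Adgrg7, both lower, where 5.99% of all genes had metastases wholly below the primary tumours and 4.22% wholly above.

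Adgrf4 and Adgrf1 lie on chromosome 17, with Adgrf2 between them and Adgrf5 on the far side of Adgrf1. Adgrf4 (ENSMUSG00000023918, chr17:42656891-42692284, reverse strand), an orphan receptor found in stratified epithelia, stood at 0.402, 30.8 and 18.7 CPM in the primary tumours. The proximal metastases had 0.313, 0.994 and 0.562 CPM and the distal metastases 0.25, 0.19 and 0.2 CPM. Primary 2 and primary 3 were far above everything else, and primary 1 lay inside the range of the metastases, so the groups overlapped. Its log2 fold change over both sites was -5.49 (SE 0.98, adjusted p = 0.0296 by edgeR's quasi-likelihood test). The sum of basal and squamous markers was also high in primary 2 and primary 3, and highest in primary 3. Sprr1a, a squamous gene of that list named here after its values were seen, had 11, 309.9 and 114 CPM in the primary tumours. Like Adgrf4, it was highest in primary 2. All other genes of that list were highest in primary 3, such as Krt5 (15.4, 143 and 1355 CPM) and Ivl (1.05, 31 and 51.6 CPM). The part of these cells in the Adgrf4 values was not tested.

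Adgrf1 (ENSMUSG00000041293, chr17:43270329-43324737, forward strand), the receptor of the fatty acid amide synaptamide, had 2.9, 8.27 and 10.5 CPM in the primary tumours. The proximal values were 2.48, 2.8 and 1.44 CPM and the distal values 1.5, 1.45 and 1.3 CPM. All primary tumours were above all metastases, but primary 1 was only 1.03 times proximal 2. The log2 fold change over both sites was -2.02 (SE 0.40, adjusted p = 0.0372 by edgeR's quasi-likelihood test). The calls of Adgrf1 and Adgrf4 were lost in 8 of the 9 fits without 1 library, with adjusted p up to 0.159 and 0.116, and were kept in the fit without primary 1; with all libraries they were lost under limma-voom (0.165 and 0.182). Adgrf2 was never above 0.64 CPM, and Adgrf5 is described with the vascular members below. Adgrf3, on another chromosome, gave 2.78 CPM in primary 3 and at most 0.23 CPM in any other library.

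Adgrg1 (ENSMUSG00000031785, chr8:94974751-95014217, forward strand), which binds collagen III and couples to RhoA signalling, had 43.6, 287 and 182 CPM in the primary tumours. The proximal metastases had 28.9, 26.5 and 56.1 CPM and the distal metastases 33.6, 40.8 and 34.9 CPM. Primary 2 and primary 3 were above all 6 metastases, and primary 1 lay below proximal 3. The log2 fold change was -2.21 (SE 0.49, adjusted p = 0.0498 by edgeR's quasi-likelihood test), so the call sits at the threshold. It was lost with library totals as the only scaling, with a filter of 1 CPM, with limma-voom, and in 8 of 9 fits without 1 library (adjusted p up to 0.175). Its neighbours on chromosome 8, Adgrg5 and Adgrg3, were low. Adgrg5, a receptor of leukocytes, had 0.349, 0.936 and 1.15 CPM in the primary tumours, 0.391, 0.612 and 0.0978 CPM in the proximal and 0.125, 0.167 and 0.166 CPM in the distal metastases, so the distal group lay below all primary tumours (log2 fold change over both sites -1.76, SE 0.55, adjusted p = 0.119 by edgeR). Adgrg3 ran from 0.293 to 3.76 CPM. This gene, a receptor of granulocytes, was highest in distal 3, the library with the highest sum of neutrophil markers (589 CPM, against 16.8 to 139 CPM in the others), and the part of those cells was not tested.

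**Figure D2:**
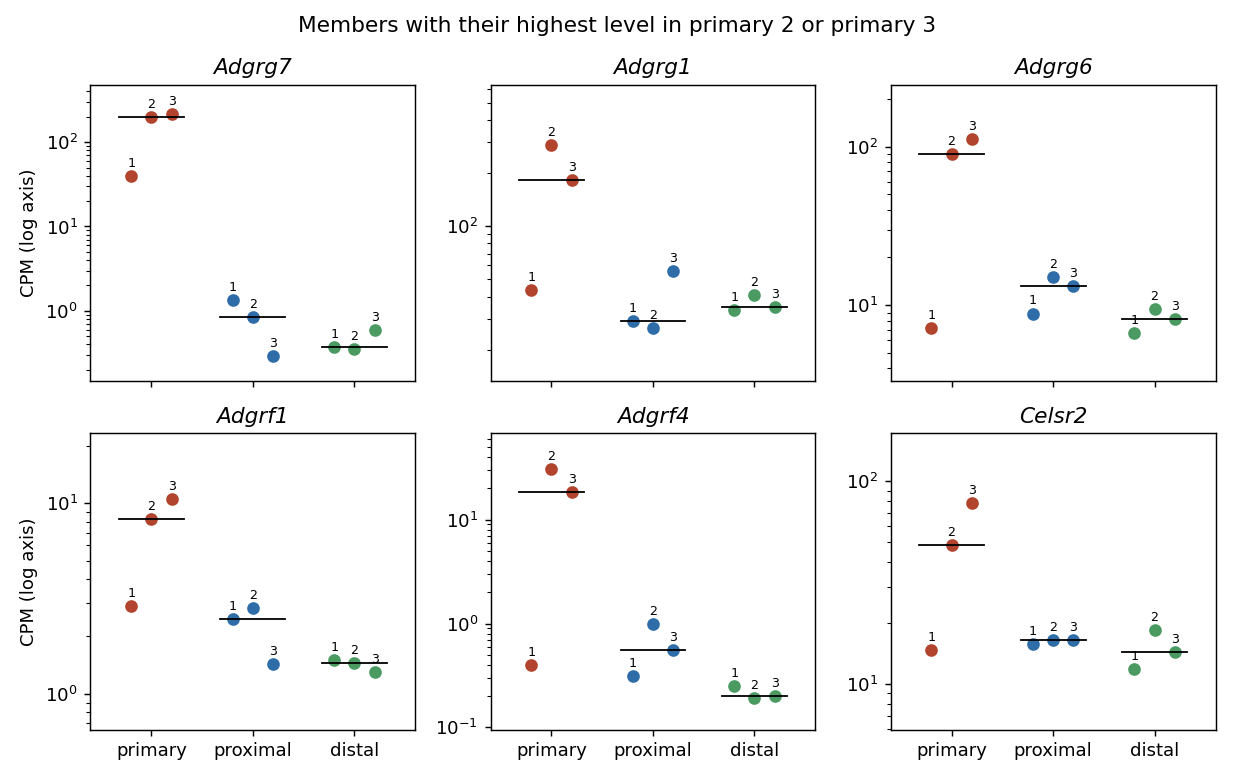
Levels of 6 members in each library, in CPM on a log axis, with the library number beside each point and the group median as a line. Adgrg7 in primary 1 (39.6 CPM) is above every metastasis, whereas Adgrf4, Adgrg6 and Celsr2 in primary 1 (0.402, 7.19 and 14.7 CPM) lie within the range of the metastases.

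Adgrg6, Adgrb1 and Celsr2 lay just outside the threshold. Adgrg6 (ENSMUSG00000039116, chr10:14402583-14545659, reverse strand), needed for myelination by Schwann cells, had 7.19, 90.3 and 111 CPM in the primary tumours, 8.87, 15.1 and 13.3 CPM in the proximal and 6.64, 9.44 and 8.16 CPM in the distal metastases. Its log2 fold change was -2.80 (SE 0.63, adjusted p = 0.0537 by edgeR's quasi-likelihood test). Markers of Schwann cells and neurons summed to 19.7, 11.2 and 30.8 CPM in the primary tumours and 12.8 to 27.4 CPM in the metastases, and their part in the Adgrg6 values was not tested.

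Celsr2 (ENSMUSG00000068740, chr3:108390851-108415552, reverse strand) had 14.7, 48.6 and 78.4 CPM in the primary tumours, 15.8, 16.4 and 16.4 CPM in the proximal and 11.9, 18.6 and 14.4 CPM in the distal metastases. Primary 1 was again inside the range of the metastases, and the log2 fold change was -1.60 (SE 0.42, adjusted p = 0.0742 by edgeR's quasi-likelihood test). Adgrb1, a receptor for apoptotic cells known from brain and phagocytes, had 0.912, 2.65 and 20.9 CPM in the primary tumours, 0.965, 0.714 and 0.293 CPM in the proximal and 0.674, 0.785 and 1.07 CPM in the distal metastases. Its log2 fold change, -3.45 (SE 0.84, adjusted p = 0.0647 by the same test), rested on primary 3 and was -1.25 without that library.

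Among the latrophilins, Adgrl1 (ENSMUSG00000013033, chr8:83900105-83941954, forward strand) was the most abundant member of the family in the metastases. Its values were 174, 18.1 and 67.2 CPM in primary 1, 2 and 3, 192, 171 and 161 CPM in the proximal and 165, 175 and 158 CPM in the distal metastases. Primary 1 lay within the range of the metastases, primary 3 was below it and primary 2 lower still. The log2 fold change over both sites was 0.98 (SE 0.57, adjusted p = 0.287 by edgeR's quasi-likelihood test) and did not pass. Without primary 1 it was 2.01 (adjusted p = 0.0159). Its exons overlap those of 3 predicted genes, so part of its counts could be theirs. Exons of Adgrb1, Adgrg2, Adgrg6, Adgrl2, Adgrl3 and Celsr3 overlap 1 predicted gene each, and those of Adgrg7, Adgrf4, Adgrf1 and Adgrg1 overlap none.

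Adgrl2 had 26.1, 29.2 and 74.3 CPM in the primary tumours, 17.7, 26.1 and 15.7 CPM in the proximal and 22.2, 25.1 and 25.2 CPM in the distal metastases. Only primary 3 was well above the rest, and its log2 fold change, -0.98 (SE 0.34, adjusted p = 0.142 by the same test), became -0.33 without it. Adgrl3, mainly known from brain, was at most 0.76 CPM apart from 8.17 CPM in primary 3, and its fold change reversed sign without that library.

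Adgrd1, Adgrv1, Adgre5 and Adgrg2 shared the low value in primary 2. Adgrd1, an orphan receptor coupled to Gs, had 74.3, 3.12 and 21.8 CPM in the primary tumours, 48.3, 88.2 and 75.1 CPM in the proximal and 58.7, 56.4 and 54.1 CPM in the distal metastases. Primary 2 and primary 3 were below all metastases and primary 1 was within them, and the log2 fold change was 0.93 (SE 0.76, adjusted p = 0.416 by edgeR's quasi-likelihood test). Adgrv1, the very large receptor of the hair cell stereocilia links, had 27, 2.07 and 6.04 CPM in the primary tumours, 34.7, 39 and 24.8 CPM in the proximal and 27.6, 30.5 and 32.8 CPM in the distal metastases. It overlapped the proximal group through primary 1 but lay below all distal metastases, and over both sites its log2 fold change was 1.43 (SE 0.69, adjusted p = 0.232).

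Adgre5 (CD97), which binds Cd55, had 52.2, 10.6 and 27.6 CPM in the primary tumours, 43.4, 51.8 and 48.6 CPM in the proximal and 50.5, 53.3 and 62.8 CPM in the distal metastases. Primary 1 was again within the metastases, and the log2 fold change was 0.77 (SE 0.42, adjusted p = 0.262 by edgeR's quasi-likelihood test). Its exons overlap those of Ddx39 on the other strand, and without a stated strand setting the reads of the pair cannot be told apart. Adgrg2, known for fluid uptake in the efferent ducts, had 25.9, 0.78 and 28.2 CPM in the primary tumours, 28.5, 43.4 and 33.8 CPM in the proximal and 28.4, 27.7 and 28 CPM in the distal metastases. Only primary 2 was far from the rest.

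**Figure D3:**
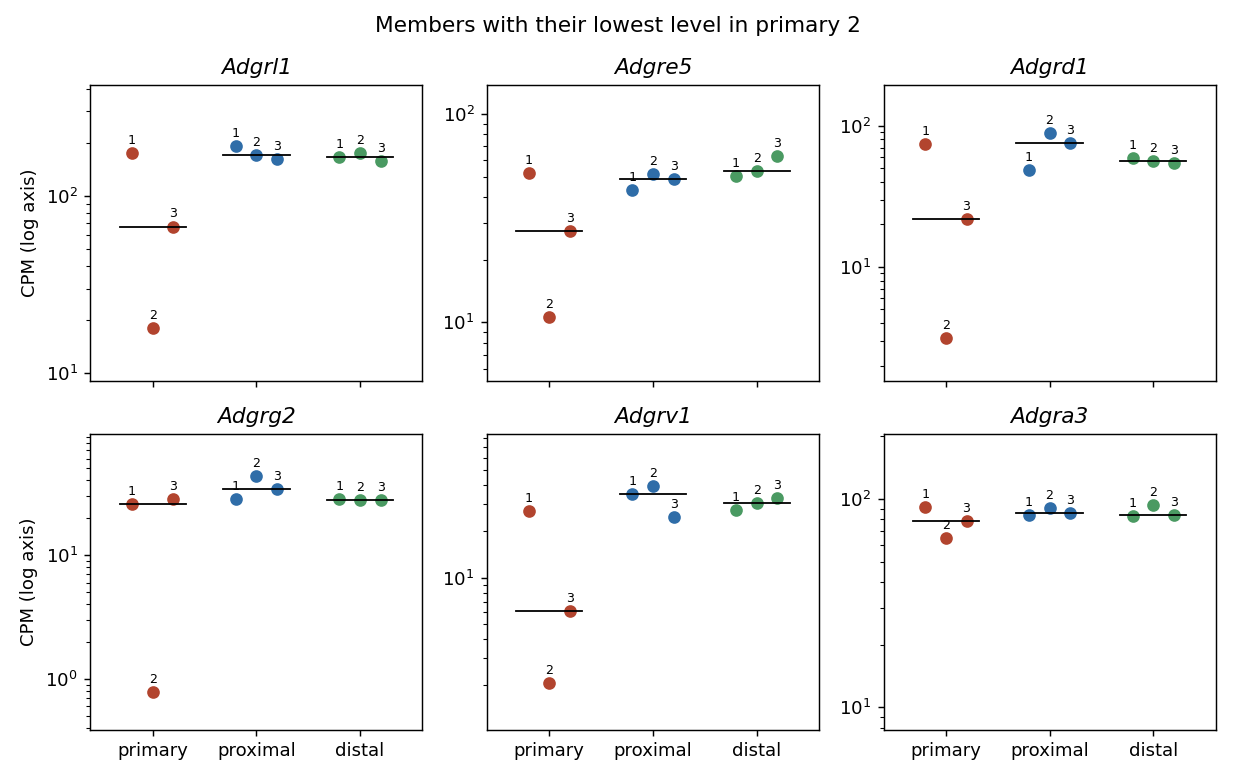
Levels of 6 members in each library, in CPM on a log axis, with the library number beside each point and the group median as a line. Primary 2 is the lowest of the 9 libraries in all 6 panels, and primary 1 is within the range of the metastases (for Adgrl1 174 CPM against 158 to 192 CPM) or, for Adgrg2, just below it.

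Leaving out primary 1 raised the number of called members over both sites from 4 to 14. The fit without it called 10 members lower (18.6% of all genes were called lower there) and 4 higher, namely Adgrd1, Adgre5, Adgrl1 and Adgrv1 (16.2% of all genes). These shares of all genes rose as well, from 3.71% in either direction with all libraries. Against the range of the 6 metastases, primary 1 lay inside for 22 of the 26 tested members (84.6%, and 70.8% of all genes), primary 2 for 7 (26.9%, and 20.7%) and primary 3 for 5 (19.2%, and 29.5%). The members outside that range were partly the same in primary 2 and primary 3. All 9 members above it in primary 2 were among the 14 above it in primary 3 (64.3% of those), where over all genes the shared ones were 58.4% and 63% of each list. Of the 10 below it in primary 2 and 7 in primary 3, 6 were shared, namely Adgra3, Adgrd1, Adgre5, Adgrl1, Adgrv1 and Celsr3 (60% and 85.7%, and over all genes 61.4% and 71.6%). The median SD of log2(CPM + 0.5) over the members was 1.13 in the primary tumours, 0.38 in the proximal and 0.22 in the distal metastases, and over all genes 0.49, 0.14 and 0.14.

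**Figure D4:**
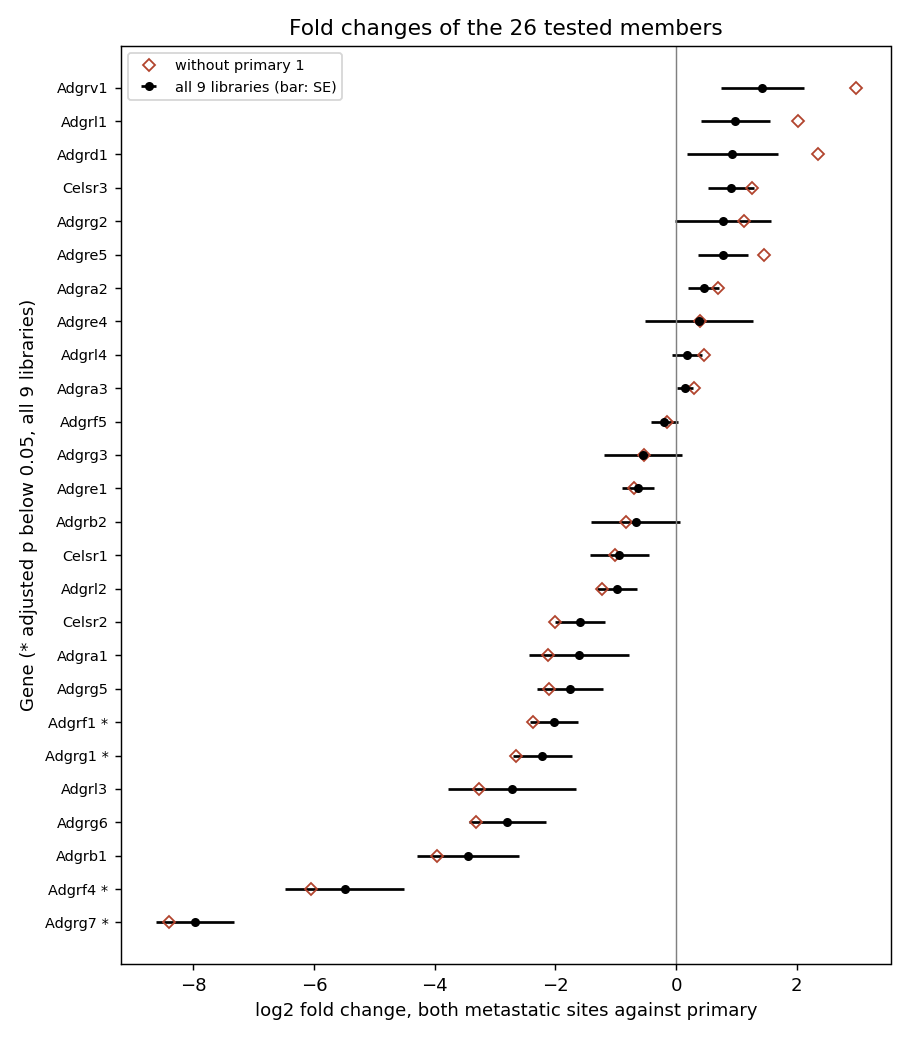
Log2 fold change of both metastatic sites against primary for the 26 tested members (filled points, bars give the SE), and the value from the fit without primary 1 (open diamonds), with an asterisk at the 4 members called with all 9 libraries. Adgrg7 lies at -7.97 and -8.41, and Adgrl1 moves from 0.98 to 2.01.

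Adgra3, and members tied to vessels and macrophages, passed the test in none of the 4 comparisons of all 9 libraries. Adgra3, an orphan receptor, had 91.6, 65.3 and 78.8 CPM in the primary tumours, 84.2, 90.7 and 85.9 CPM in the proximal and 83.2, 93.8 and 83.7 CPM in the distal metastases. Its log2 fold change over both sites was 0.15 (SE 0.13, adjusted p = 0.45 by edgeR's quasi-likelihood test). Adgra2, the Wnt7 co-receptor of brain vessels and pericytes, had 39.3, 32.2 and 21.3 CPM in the primary tumours, 31.1, 53 and 37.5 CPM in the proximal and 54.9, 41.5 and 36.8 CPM in the distal metastases, and its groups overlapped. Its exons overlap those of Brf2 on the other strand.

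Adgrf5 and Adgrl4 are receptors of endothelium. Adgrf5 had 24, 21.4 and 24.8 CPM in the primary tumours, 16.3, 23.8 and 20.4 CPM in the proximal and 13.7, 21.7 and 26.6 CPM in the distal metastases. Adgrl4 had 15.3, 8.38 and 10.6 CPM, 11.7, 12.7 and 17.3 CPM and 10.3, 11.1 and 14.9 CPM in the same order. The groups overlapped for both, with log2 fold changes of -0.20 (SE 0.22) and 0.18 (SE 0.25), neither called. Of 10 endothelial markers, 0 were called, and over both sites 3 were lower at an unadjusted p below 0.05 (18.6% of all genes). The sum of these markers ran from 266 to 339.8 CPM in the primary tumours and 138 to 234 CPM in the metastases.

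Adgre1, the F4/80 antigen, had 16.3, 13.5 and 25.3 CPM in the primary tumours, 10.2, 13.4 and 8.24 CPM in the proximal and 10.2, 13.3 and 16.3 CPM in the distal metastases. It lay lower in all proximal metastases than in any primary tumour, but overlapped through distal 3, and did not pass the test (log2 fold change -0.63, SE 0.26, adjusted p = 0.193 by edgeR). Of 10 other macrophage markers, 0 were called. Over both sites 7 were lower (18.6% of all genes) and 1 higher (6.04%) at an unadjusted p below 0.05. The sum of these markers ran from 353 to 666 CPM in the primary tumours and 179 to 323 CPM in the metastases. Adgre4, also a macrophage receptor, was at most 1.27 CPM, and its fold change of 0.38 (SE 0.90) changed sign in 3 alternative fits.

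Celsr1 had 12.7, 12.7 and 18.9 CPM in the primary tumours, 2.11, 13.5 and 10 CPM in the proximal and 9.24, 6.73 and 4.8 CPM in the distal metastases. It was lower in every distal metastasis than in any primary tumour and lowest in proximal 1, and over both sites the log2 fold change was -0.94 (SE 0.50, adjusted p = 0.258 by edgeR's quasi-likelihood test). The remaining members were low: Adgra1, Adgrb2 and Adgrb3, known mainly from brain, were at most 2.71, 3.42 and 0.27 CPM, and Adgrg4 had 8 counts in all libraries together.

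The comparisons of the single sites share the same 3 primary libraries. Groups did not overlap for 3 members lower (Adgre1, Adgrf1 and Adgrg7, where 10.7% of all genes were lower in this way) and 1 higher (Adgrg2, 8.68%) in the proximal comparison. In the distal comparison they did not overlap for 7 lower (Adgrf1, Adgrf4, Adgrg1, Adgrg5, Adgrg7, Adgrl2 and Celsr1, where the background was 10.4%) and 2 higher (Adgrv1 and Celsr3, 8.4%). At an unadjusted p below 0.05 there were 9 lower (14.3% of all genes) and 0 higher (3.86%) at the proximal site, and 8 lower (13.5%) and 1 higher (3.89%) at the distal site. The median log2 fold change of the members was -0.83 at the proximal and -0.47 at the distal site, and over all genes -0.05 and -0.03.

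Between the 2 metastatic sites no member was called, and neither was any other gene (0 of 18204, 0%, by edgeR's quasi-likelihood test). With no adjustment, 375 genes (2.06%) had a p below 0.05, among them 1 member, higher in the distal group (1.79% of all genes), and DESeq2 called 85 genes, 0 of them members. That member was Celsr3, a planar cell polarity cadherin of neurons, with 0.678, 0.663 and 0.685 CPM in the proximal and 1.05, 0.88 and 2.06 CPM in the distal metastases, against 0.697, 0.429 and 0.373 CPM in the primary tumours. All distal values were above all proximal ones, the highest being distal 3, and the log2 fold change was 0.97 (SE 0.42, unadjusted p = 0.048, adjusted p = 1 by the same test) and 0.51 without distal 3. Distal 3 also had the highest sums of skeletal muscle and neutrophil markers. Among the metastases it had the highest sum of Schwann cell and neuron markers as well (27.4 CPM). The part of these cells in the Celsr3 values was not tested. Groups did not overlap for Adgrf4 and Adgrg2 either, both lower in the distal group (3.6% of all genes were lower in this way and 4.03% higher). The median log2 fold change of the members was -0.10, and the error on single members was wide, as for Adgrg7, where the log2 fold change of distal against proximal was -0.90 (SE 0.76).

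Per length of exon the order of the family changed between the primary tumours and the metastases. Adgrl1 was the leading member in all 6 metastases and in primary 1, at 18.8% to 27.8% of the summed CPM per kb. Adgrg7 led in primary 2 and primary 3, with 40.2% and 39.8% of the sum, took 13.6% in primary 1 and was at most 0.612% in the metastases. By the median over the 6 metastases the order was Adgrl1 (19.6 CPM per kb), Adgre5 (13.6), Adgra3 (10.5), Adgrd1 (6.92), Adgra2 (6.84), Adgrg1 (6.31) and Adgrg2 (5.38). Adgrl1 lay above Adgre5 in each metastasis, whereas Adgrd1, Adgra2 and Adgrg1 changed places between libraries. Per kb of the longest transcript in place of the exon union, Adgra3 ranked 2 and Adgre5 ranked 3 in the metastases, and Adgrg1 ranked 5 and Adgra2 ranked 6. In the primary tumours the medians were 73 CPM per kb for Adgrg7, 33.6 for Adgrg1, 9.71 for Adgra3, 7.83 for Adgrl1 and 7.38 for Adgrg6, with primary 1 far from the other 2 for most of these. By the longest transcript Adgrl1 ranked 6 in the primary tumours, behind Adgrg6 and Adgre5. Adgrg7 was at 14.7, 73 and 80.3 CPM per kb in primary 1, 2 and 3. The sum over the family was 693, 886 and 1066 CPM in the primary tumours and 582 to 696 CPM in the metastases.

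**Figure D5:**
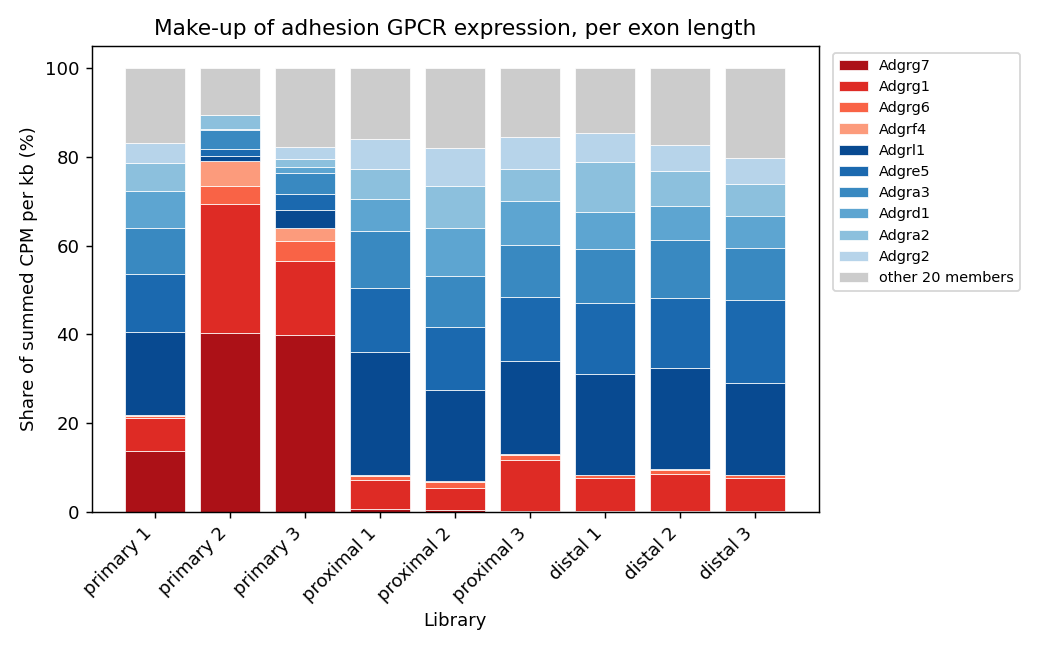
Share of the family's summed CPM per kb taken by 10 members and by the other 20 together, in percent, with 1 bar per library. Adgrg7 and Adgrg1 fill most of the bars of primary 2 and primary 3 (40.2% and 29.1%, and 39.8% and 16.7%), and Adgrl1, Adgre5 and Adgra3 are the broadest shares in the metastases.

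Ligands and partners of these receptors showed little change that passed the test. Of 27 listed ligands and partners 22 were tested and 0 were called in any comparison. Over both sites their median log2 fold change was near 0 (-0.001, and -0.04 over all genes). At an unadjusted p below 0.05, 4 were lower (18.6% of all genes) and 1 higher (6.04%). Their most abundant genes were Col3a1, a ligand of Adgrg1, at 1015, 293 and 417 CPM in the primary tumours and 385 to 828 CPM in the metastases, Tgm2, an enzyme that binds Adgrg1, at 712, 225 and 168 CPM and 731 to 919 CPM, and Tenm4, a teneurin, at 483, 419 and 322 CPM and 351 to 651 CPM. Cd55, the partner of Adgre5, had 12.3, 11.6 and 41.4 CPM in the primary tumours and 1.24 to 7.98 CPM in the metastases. Its log2 fold change over both sites was -3.04 (SE 0.68, adjusted p = 0.0517 by edgeR's quasi-likelihood test). Sftpd, which was not tested, had 0.0268, 14.9 and 9.73 CPM in the primary tumours and at most 0.102 CPM in the metastases. The other untested genes of the list were at most 0.39 CPM in every library. Cd55 and Sftpd were chosen for mention after their values were seen.

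Of 12 planar cell polarity partners of the Celsr cadherins, 1 was called, Fzd3, as lower in both sites together (3.68% of all genes), and 0 at the single sites. Fzd3, a frizzled receptor, had 0.992, 9.9 and 14.2 CPM in the primary tumours, 1.23, 0.484 and 0.978 CPM in the proximal and 0.774, 1.02 and 1.37 CPM in the distal metastases. Primary 1 was within the range of the metastases, as it was for Celsr2, and the log2 fold change was -3.10 (SE 0.67, adjusted p = 0.0483 by edgeR's quasi-likelihood test). The call was lost in 8 of 9 fits without 1 library (adjusted p up to 0.199), with library totals, with a filter of 1 CPM and with limma-voom. The most abundant of the other 11 partners were Prickle2, at 189, 14.9 and 41 CPM in the primary tumours and 136 to 271 CPM in the metastases, Fzd6, at 109, 47.5 and 122 CPM and 95.2 to 124 CPM, and Vangl2, at 98.4, 12.2 and 52 CPM and 83.4 to 112 CPM. All 3 were lowest in primary 2. Of 15 G protein alpha subunits and arrestins, through which these receptors signal, 0 were called in any comparison. Gnai3 had 575, 256 and 289.9 CPM in the primary tumours and 442 to 565 CPM in the metastases, Gnai2 451, 654 and 441 CPM and 464 to 532 CPM, and Gna12, the partner of RhoA signalling, 278, 47.1 and 169.8 CPM and 260.1 to 294 CPM.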

How the data were processed

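RNA was measured in 9 libraries, 3 per group, grouped by the tissue label. The deposited files hold raw whole-number counts per Ensembl gene. Per the submitters' processing notes, the tools listed are HTSeq 0.6.0, DESeq2 1.14.1, TopHat2 2.1.0, FastQC 0.11.4, R 3.2.3 and Bowtie2 2.2.6.0, on GRCm38.p3. With strand setting and annotation release not given in the sources used here, reads of overlapping genes may be misassigned. Of 47069 identifiers, 46488 matched a symbol. A further engineered change in the genotype and 1 luminal marker, left out of its list and sum, are not reported here.

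From these counts, CPM was computed using TMM factors (trimmed mean of M values) on the library totals. A gene at 1 CPM holds 25.6 to 42 counts. Genes with a count of at least 10 in enough libraries and 15 in total (filterByExpr) were tested, 18204 in all. Testing used the robust quasi-likelihood F-test of edgeR 4.0.16 (R 4.3.3) over the 9 libraries (6 residual degrees of freedom), Benjamini-Hochberg adjustment over all tested genes and a call at an adjusted p below 0.05. The 4 comparisons set each site, and the mean of both, against primary, and distal against proximal. SE is the absolute log2 fold change over the square root of F. The fit uses 1 dispersion per gene although the primary group spreads more. The procedure was tested on simulated data with the same dispersion in every group. That test therefore does not cover the wider spread of the primary group. No library was a copy of another (lowest chi-square per gene 24).

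Levels per kb use the exon union of GENCODE M21 on GRCm38, which also gave positions. Promoter windows are RefSeq's on GRCm38.p6. Alternatives were DESeq2 1.42.0, limma-voom 3.58.1 with and without sample quality weights, median-ratio scaling (RLE), library totals, no filter, a filter of 1 CPM, no robust shrinkage, the compared groups alone, and each library left out. Values in every library are given for members called in any comparison or reaching 10 CPM in a library, 19 in all. Other members are given by range, or by value where they are alone in a subfamily or their groups do not overlap. From 3 pathway lists the called genes and up to 3 with the highest CPM are named, and 13 marker lists were summed. The members and lists were chosen with earlier results of these data known. The p-values measure the spread between these libraries only.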

Additional observations from a re-analysis of the deposited data

How the results depend on the processing

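The number of members called depended on the fit. Over both sites together the 4 calls became 9 with DESeq2, 1 with limma-voom and 11 with sample quality weights, and 1 to 14 when a library was left out, 14 without primary 1 and 1 without any other. At the proximal site the 1 call became 7, 0 and 11 with the same tools, 0 with the compared groups alone, and 0 to 12 when a library was left out. At the distal site it became 8, 0 and 11, 0 with the compared groups alone, and 0 to 12. Between the sites it was 0 in every fit. The cause of these changes was not tested, except that fits without a library or on fewer groups have fewer samples.

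The number of all genes called moved alike: 676 over both sites became 2590 with DESeq2, 76 with limma-voom, 3813 with quality weights, and 22 to 6616 without a library. The 9 genes of the proximal site became 1486, 1, 3528, 15 with RLE scaling, 23 with the 1 CPM filter, 26 with no filter, 22 without robust shrinkage, 0 in the compared groups alone and 0 to 5447 without a library. The 16 of the distal site became 1444, 1, 3041, 10 with library totals, 0 in the compared groups alone and 0 to 5203. Between the sites, 0 became 85 with DESeq2 and 0 to 38 without a library, 38 without distal 1.

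Signs reversed for 4 members, none of them called with all 9 libraries, though Adgrl3 was called without primary 1 (adjusted p = 0.0314 by edgeR). Without primary 3, Adgra1 became 0.75, Adgrb2 0.42 and Adgrl3 0.55. Adgre4 became -0.83 with quality weights, -0.08 without primary 2 and -0.34 without proximal 2. Over all fits without a library Adgra1 ran from -2.13 to 0.75, Adgrb2 from -1.16 to 0.42, Adgrl3 from -3.26 to 0.55 and Adgre4 from -0.34 to 1.08. RLE scaling and library totals moved the median of all genes by less than 0.1 log2 units in all 4 comparisons. No paired analysis was possible because the labels do not say which libraries share a mouse, and the library numbers are in accession order. Members under 1 CPM rest on few counts, which limits the precision of their values.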
